A study of Mus musculus with 8 samples.

Results

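Mitral and tufted cells are the projection neurons of the olfactory bulb. In RNA of bulb tissue, 7 genes known from these cells were followed, Cdhr1, Reln, Slc17a6, Slc17a7, Slc17a8, Doc2g and Cck. They were taken by symbol from a table of 19583 genes. Other cells can also express some of them, so their levels are not those of mitral and tufted cells alone. All 7 were in the table, and 6 of them passed a filter on low values that left 14349 genes for testing. The genes were not chosen by their values in this fit, but they were chosen with earlier results of the same data known.

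RNA was sequenced from the olfactory bulbs of mice at postnatal day 30. One group of 4 libraries carried hGFAP-Cre together with Sp8 Flox/Flox and with Sp9 Flox/Flox and is called the double mutant. The other group of 4 libraries came from littermates labelled wild type. Both groups shared a mixed background of C57BL/6J, 129S6 and CD1. The human GFAP promoter drives Cre in radial glia and astrocytes, so the floxed alleles are lost in these cells and their descendants and not in every cell of the bulb. The labels name the transgene and the floxed alleles only in the double mutant, so their own effects and the loss of Sp8 and Sp9, zinc finger transcription factors of bulb interneurons, cannot be told apart. The labels give double mutant replicates 1 and 2 the letter A, replicates 3 and 4 the letter B, wild-type replicates 1 and 2 the letter C and replicates 3 and 4 the letter D. They do not say what a letter stands for or whether libraries came from separate animals, so every p-value reflects only how far libraries of a group spread, and that spread may be technical. Each letter holds 1 group only, so letter and group cannot be told apart within a letter.

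Mitral and tufted cells are glutamatergic. They receive the input of olfactory sensory axons in the glomeruli, send axons to the olfactory cortex, and exchange signals with local interneurons through synapses between dendrites. The genes described here serve the work of these cells rather than their specification. Slc17a6, Slc17a7 and Slc17a8 encode the vesicular glutamate transporters VGLUT2, VGLUT1 and VGLUT3, which load glutamate into synaptic vesicles. Reln encodes reelin, a secreted glycoprotein that signals through the receptors of Vldlr and Lrp8, Cck encodes the neuropeptide cholecystokinin, which marks many tufted cells, Cdhr1 encodes a cadherin-related surface protein, and Doc2g encodes a protein with a pair of C2 domains.

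Depth came to between 11888682 and 19040802 fragments per library, estimated from the step size of scaled columns. Both targeted genes were lower in the double mutant. Sp8 lay between 6.15 and 8.06 FPKM there and between 29.34 and 31.57 FPKM in wild type, and Sp9 between 6.24 and 7.27 FPKM against 23.15 to 25.3 FPKM. FPKM counts sequenced fragments relative to transcript length and library size. Of the 14349 tested genes, limma called 65.3% at an adjusted p below 0.05, of which 4127 (28.8% of those tested) rose and 5237 (36.5%) fell. The median log2 fold change of all tested genes was -0.04. Groups did not overlap for 59.1% of tested genes, 25.7% higher and 33.4% lower. When the columns were scaled to a common upper quartile the split became 5123 higher and 3820 lower.

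The 4 members that rose, described below, sit at loci whose upstream sequence is shown here because Sp family proteins are known to bind GC boxes. The 250 bases before the RefSeq start (build GRCm38.p6) are printed from 5′ to 3′ on the strand of the gene, and capitals mark GGGCGG or its reverse complement CCGCCC. The windows are chr5:22344706-22344955 on the minus strand for Reln, chr7:45163671-45163920 on the plus strand for Slc17a7, chr7:51621580-51621829 on the plus strand for Slc17a6 and chr14:37098348-37098597 on the minus strand for Cdhr1.
Reln: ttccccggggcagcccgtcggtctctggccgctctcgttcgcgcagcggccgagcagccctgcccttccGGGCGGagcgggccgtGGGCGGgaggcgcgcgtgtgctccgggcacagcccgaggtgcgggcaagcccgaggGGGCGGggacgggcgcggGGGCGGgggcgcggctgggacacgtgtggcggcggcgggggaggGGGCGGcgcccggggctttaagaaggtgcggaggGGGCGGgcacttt
Slc17a7: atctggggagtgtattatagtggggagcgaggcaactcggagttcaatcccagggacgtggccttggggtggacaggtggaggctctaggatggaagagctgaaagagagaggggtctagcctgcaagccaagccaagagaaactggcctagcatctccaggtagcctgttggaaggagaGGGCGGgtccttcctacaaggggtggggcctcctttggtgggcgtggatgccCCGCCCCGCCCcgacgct
Slc17a6: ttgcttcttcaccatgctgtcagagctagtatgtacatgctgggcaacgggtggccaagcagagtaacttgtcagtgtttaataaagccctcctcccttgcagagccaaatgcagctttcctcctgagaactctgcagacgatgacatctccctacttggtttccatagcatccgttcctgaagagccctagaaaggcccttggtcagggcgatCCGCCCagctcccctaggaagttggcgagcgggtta
Cdhr1: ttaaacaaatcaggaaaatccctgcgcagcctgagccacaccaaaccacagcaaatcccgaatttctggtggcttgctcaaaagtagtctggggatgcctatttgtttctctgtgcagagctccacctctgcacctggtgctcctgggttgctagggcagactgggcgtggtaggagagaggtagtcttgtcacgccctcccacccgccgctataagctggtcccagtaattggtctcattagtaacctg
Reln held 6 matches, Slc17a7 held 3, Slc17a6 held 1 and Cdhr1 held 0. The windows of Doc2g, Cck and Slc17a8, not printed, also held 0. Of all 32851 windows of this length in the table, 32.7% held at least 1 match. TCACACC or GGTGTGA, a short form of the site of T-box factors such as those made by Eomes and Tbx21, was in none of the 7 windows and in 3.33% of all windows. The GC content was 80.0% in the Reln window and 53.2% to 61.2% in those of the other members. A match describes letters only and shows no binding.

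Of the 6 tested members, 4 were higher in the double mutant, where 28.8% of all tested genes were called higher, and none was called lower. These were Slc17a6, Reln, Slc17a7 and Cdhr1. Their groups did not overlap, which held in this direction for 25.7% of tested genes. Doc2g and Cck did not pass the test, although under upper quartile scaling all 6 members were called higher. The median log2 fold change of the 6 was 0.50. In bulk tissue, fewer cells of a type and less RNA per cell cannot be told apart, nor can more cells and more RNA per cell.

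**Figure D1:**
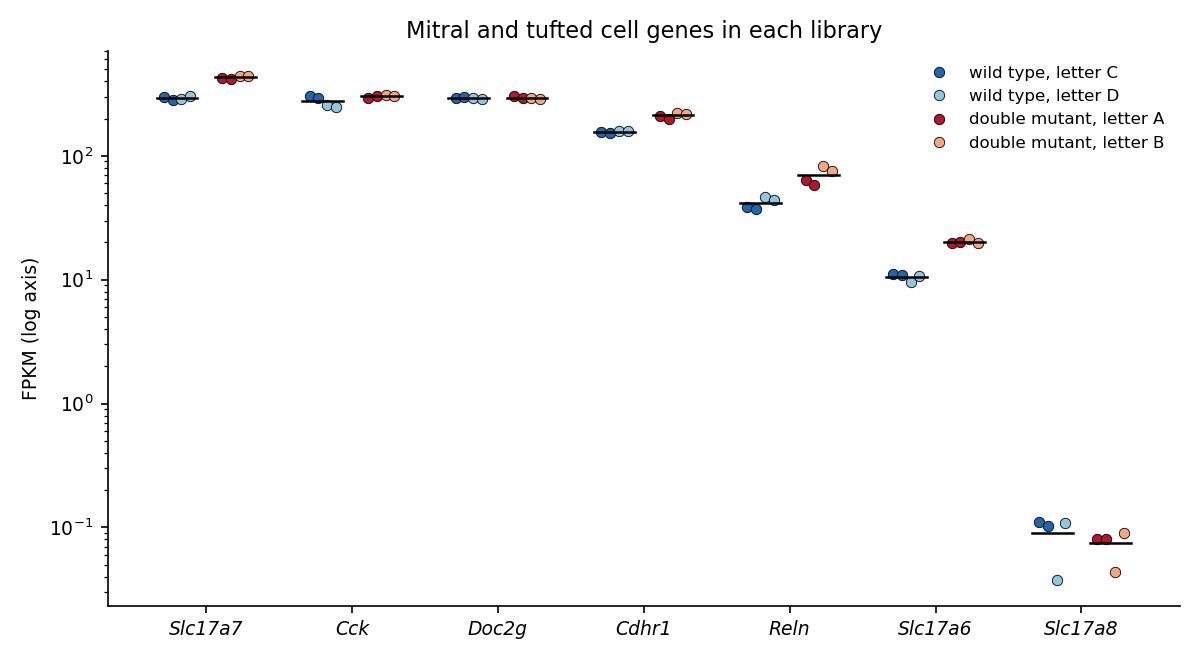
FPKM of each member (log axis) in the 4 wild-type and 4 double mutant libraries, with points coloured by the letter of the labels and a line at the mean of each group. The groups separate for Slc17a7, Cdhr1, Reln and Slc17a6, overlap for Cck and Doc2g, and Slc17a8 lies near 0.1 FPKM in both.

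The vesicular glutamate transporters are the proteins that make a neuron glutamatergic. Slc17a7 (chromosome 7, 45163949 to 45176142, plus strand, in GENCODE M21 on GRCm38) had the highest level of the members in the double mutant, and in wild type it stood level with Doc2g and Cck. It measured 422.2, 417.2, 440.9 and 439.6 FPKM in the double mutant, in replicate order, and 298.3, 280.1, 289.3 and 301.3 FPKM in wild type. Every double mutant library was above every wild-type library, and the spread within each group was narrow. The means were 430.0 ± 12.1 and 292.3 ± 9.6 FPKM (SD, n = 4), a 1.47-fold difference and 0.56 ± 0.03 in log2 fold change (SE, limma, adjusted p = 1.53e-07). Fold changes are on the log2(FPKM + 0.5) scale. Of all tested genes 10.6% rose by more on this scale.

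Slc17a6 (chromosome 7, 51622006 to 51671119, plus strand) had a much lower level and the largest rise among the members. It measured 19.81, 19.97, 21.20 and 19.84 FPKM in the double mutant and 11.09, 10.93, 9.49 and 10.80 FPKM in wild type. The groups lay far apart compared with the spread inside each. The means were 20.2 ± 0.7 and 10.6 ± 0.7 FPKM (SD, n = 4), a 1.91-fold difference and 0.90 ± 0.05 in log2 fold change (SE, limma, adjusted p = 1.45e-07). Of all tested genes 2.77% rose by more. Slc17a6 is also expressed by olfactory sensory neurons, whose axons end in the bulb. The markers of those neurons rose in the same libraries, with Omp, a cytoplasmic protein of mature sensory neurons, going from 59.2 ± 12.6 to 109.8 ± 11.8 FPKM (SD, n = 4) and 0.90 ± 0.13 in log2 fold change (SE, limma, adjusted p = 0.000148). All 4 tested genes of the 7 listed rose, where 28.8% of all tested genes did. The summed level of the list lay between 213.5 and 342.8 FPKM in wild type and between 413.1 and 543.1 FPKM in the double mutant. No listed marker was at 0 in all libraries. The part of this list in the rise of Slc17a6 was not tested.

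Slc17a8 (chromosome 10, 89574020 to 89621253, minus strand) was barely detected. Its values were 0.081, 0.081, 0.044 and 0.091 FPKM in the double mutant and 0.110, 0.103, 0.037 and 0.109 FPKM in wild type, which correspond to 7, 8, 4 and 11 fragments and to 11, 10, 3 and 8 fragments. The groups overlap, and counts this small limit any comparison. An exact permutation test over the libraries gave p = 0.457 (two-sided, n = 4 per group), and the gene did not reach the filter of a mean of 0.5 FPKM. A difference was not detectable at this depth. 

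The balance between the 2 detected transporters shifted. In each library the ratio of the FPKM of Slc17a6 to that of Slc17a7 does not depend on how libraries are scaled. It was 0.0469, 0.0479, 0.0481 and 0.0451 in the double mutant and 0.0372, 0.0390, 0.0328 and 0.0358 in wild type. All 4 double mutant ratios were above all 4 wild-type ratios. The log2 ratio, with 0.5 FPKM added to each gene, was higher by 0.35 in the double mutant (two-sided exact permutation p = 0.0286, the smallest that 4 against 4 libraries can give, and 0.0353 adjusted over 21 pairs of members). As a share of the summed FPKM of the 3 transporters, Slc17a6 made up 4.49% ± 0.12 in the double mutant and 3.49% ± 0.24 in wild type (SD, n = 4), so Slc17a7 remained by far the major transporter RNA in both groups.

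Other genes of glutamate handling moved in both directions. Of 12 genes of glutamate supply and uptake, all tested, 7 rose, 3 fell and 2 did not pass, with a median log2 fold change of 0.21. Among all tested genes 28.8% were called higher and 36.5% lower, so calls in both directions are not particular to this list. Those with the smallest p were Slc38a3, Glul and Slc1a4. Glul, the glutamine synthetase that turns glutamate into glutamine, rose from 757.4 ± 14.6 to 1119 ± 31 FPKM (SD, n = 4), a log2 fold change of 0.56 ± 0.03. The glutamine transporter gene Slc38a3 rose by 0.60 ± 0.03 and Slc1a4, a neutral amino acid transporter gene, by 0.52 ± 0.03 on the log2 scale. Slc1a3, the astrocytic glutamate uptake gene, rose by 0.48 ± 0.03. All 6 astrocyte markers rose in the same libraries (median 0.68), and their summed level went from between 736.9 and 829.4 FPKM to between 1132 and 1170 FPKM, which includes Slc1a3 itself. None of these 6 was at 0, and their part in these rises was not tested. Chosen after its values were seen, Slc1a1, a neuronal glutamate uptake gene, fell by 0.65 ± 0.06 on the log2 scale. Of the other Slc17 genes listed, 5 were in the table and 1 was tested. This was Slc17a5, which encodes the lysosomal sialic acid transporter sialin, and it rose by 0.16 ± 0.05 (SE, limma adjusted p = 0.0159), from 6.25 ± 0.31 to 7.05 ± 0.26 FPKM (SD, n = 4). Slc17a5 did not pass on the means of the letters (adjusted p = 0.0885), without letter B (0.102) or without letter C (0.152).

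Reln (chromosome 5, 21884454 to 22344702, minus strand) encodes the secreted ligand of the reelin pathway. It measured 64.2, 58.5, 83.2 and 75.5 FPKM in the double mutant and 38.9, 37.3, 46.2 and 43.9 FPKM in wild type. The lowest double mutant library stood above the highest wild-type library, and in each group the libraries of 1 letter stood above those of the other. The means were 70.3 ± 11.1 and 41.6 ± 4.2 FPKM (SD, n = 4), a 1.69-fold difference and 0.74 ± 0.105 in log2 fold change (SE, limma, adjusted p = 0.000112). Of all tested genes 5.53% rose by more. Behind these values were between 7020 and 20835 fragments per library, so counting error is small for Reln.

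Reln differed between the letters of a group more than most genes did. Libraries of letter B were above those of letter A by 0.37 on the log2 scale, a wider gap than that of 96.2% of tested genes, and libraries of letter D were above those of letter C by 0.24, wider than for 91.4%. Without letter B the log2 fold change was 0.56 and without letter A it was 0.93, and it passed the test in both. On the means of the 4 letters the change was 0.74 ± 0.13 (SE, limma adjusted p = 0.00454). Annotated exons of Reln overlap those of Gm10475, a gene on the opposite strand that is not in the table, over 246 bases. The strand setting is not given in the sources used here.

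The receptors of reelin went in opposite directions. Lrp8, also called ApoER2, measured 12.8, 11.35, 11.9 and 12.4 FPKM in the double mutant and 26.8, 28.7, 28.6 and 29.2 FPKM in wild type. All double mutant libraries were below all wild-type libraries, with -1.19 ± 0.045 in log2 fold change (SE, limma, adjusted p = 9.2e-09). Vldlr measured 21.2, 20.5, 19.7 and 19.1 FPKM in the double mutant and 14.5, 14.1, 14.95 and 13.85 FPKM in wild type, so the groups again did not overlap but in the other direction. It rose by 0.47 ± 0.04 on the log2 scale (limma adjusted p = 4.57e-06). Dab1, the adaptor that both receptors engage inside the cell, fell by 0.27 ± 0.05, from 19.3 ± 1.0 to 15.95 ± 0.84 FPKM (SD, n = 4).

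Of 13 genes in the list of reelin receptors, adaptor and downstream signalling, 8 fell, 4 rose and 1 did not pass, with a median log2 fold change of -0.13. The shares over all tested genes were 36.5% lower and 28.8% higher. Many of the falls were small, and the number called lower was 4 with upper quartile scaling or quantile normalization. Cdk5r1, the activator of the kinase Cdk5, fell by 0.54 ± 0.04 on the log2 scale. The integrin gene Itgb1, which is widely expressed outside neurons, rose by 0.54 ± 0.03. Pafah1b1, which encodes the dynein regulator Lis1 and had the highest level of the list, fell by 0.12 ± 0.03 (SE, limma adjusted p = 0.00816). It did not pass under upper quartile scaling (-0.04, adjusted p = 0.26), under quantile normalization (adjusted p = 0.178), on the means of the letters (adjusted p = 0.0736), or without letter A or D (adjusted p = 0.0566 and 0.053). Among the proteases that can cleave reelin, 5 of 6 listed were in the table and 4 were tested. Adamts3 fell from 3.47 ± 0.26 to 1.42 ± 0.23 FPKM and Adamts5 from 2.89 ± 0.23 to 1.18 ± 0.17 FPKM (SD, n = 4), with log2 fold changes of -1.06 ± 0.10 and -1.02 ± 0.09. Plat, the tissue plasminogen activator, rose by 0.57 ± 0.06 and Adamts4 did not pass.

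Cdhr1 (chromosome 14, 37077857 to 37098347, minus strand) encodes a cadherin-related protein that is also known from photoreceptors. It measured 209.8, 199.1, 220.4 and 216.8 FPKM in the double mutant and 156.0, 151.7, 158.6 and 159.5 FPKM in wild type. The groups did not overlap. The means were 211.5 ± 9.4 and 156.5 ± 3.5 FPKM (SD, n = 4), a 1.35-fold difference and 0.43 ± 0.035 in log2 fold change (SE, limma, adjusted p = 1.87e-06). Of all tested genes 15.2% rose by more. Of the cadherin-related and prominin genes listed beside it, 5 of 6 were in the table and only Prom1 and Cdhr3 reached the filter. Prom1, a membrane protein known to act with Cdhr1 in photoreceptors, rose from 5.27 ± 0.64 to 8.10 ± 1.35 FPKM (SD, n = 4), 0.57 ± 0.11 in log2 fold change (SE, limma, adjusted p = 0.00119). Cdhr3 measured 0.71 ± 0.19 and 0.54 ± 0.11 FPKM in double mutant and wild type and did not pass.

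Doc2g (chromosome 19, 4003313 to 4007005, plus strand) encodes the gamma member of the Doc2 family of C2 domain proteins. It measured 302.3, 290.7, 293.0 and 285.3 FPKM in the double mutant and 295.3, 298.9, 290.4 and 286.9 FPKM in wild type. The values of the groups interleave. The means were 292.8 ± 7.1 and 292.9 ± 5.3 FPKM (SD, n = 4), with 0.00 ± 0.03 in log2 fold change (SE, limma, adjusted p = 0.992). The sign and the call depend on the scaling, with 0.09 ± 0.03 (adjusted p = 0.0343) under upper quartile scaling, 0.03 under trimmed mean scaling and 0.04 under quantile normalization. Relative to the median of all tested genes the value was 0.04 as deposited and between 0.04 and 0.06 under these 3 scalings. Exons of Doc2g share 1926 bases with those annotated to Gm49405, a gene on the same strand that is not in the table.

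The relatives of Doc2g did change. Doc2a and Doc2b encode calcium sensors of transmitter release. Doc2b measured 5.17, 5.76, 5.89 and 5.04 FPKM in the double mutant and 2.75, 2.56, 1.86 and 2.72 FPKM in wild type, without overlap, and rose by 1.01 ± 0.10 on the log2 scale (SE, limma adjusted p = 1.05e-05). Doc2a fell from 8.45 ± 0.55 to 5.11 ± 0.49 FPKM (SD, n = 4), -0.68 ± 0.07 in log2 fold change (SE, limma, adjusted p = 1.1e-05). The level of either was far below that of Doc2g per length of transcript. Of 14 genes of the Doc2 family and its release partners, 13 were tested, 6 rose and 7 fell, with a median log2 fold change of -0.19. Beside these counts, 28.8% of all tested genes rose and 36.5% fell. The priming factor gene Unc13a fell by 0.55 ± 0.04 on the log2 scale. Rab3a, a small GTPase gene of synaptic vesicles and the member of this list with the highest level, fell by 0.38 ± 0.03.

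Cck (chromosome 9, 121489824 to 121495694, minus strand) encodes the precursor of cholecystokinin. It measured 292.4, 306.5, 309.3 and 305.5 FPKM in the double mutant and 304.6, 291.3, 259.4 and 249.3 FPKM in wild type. Of the wild-type libraries of letter C, replicate 1 lay within the range of the double mutant and replicate 2 just below it, and those of letter D lay below all other libraries. The means were 303.4 ± 7.5 and 276.2 ± 26.1 FPKM (SD, n = 4), with 0.14 ± 0.06 in log2 fold change (SE, limma, adjusted p = 0.0528), which did not pass. Without letter C the change was 0.25 (adjusted p = 0.000613) and without letter D it was 0.03 (adjusted p = 0.582), so its size rests on which wild-type libraries are used. It passed without wild-type replicate 1 (0.19, adjusted p = 0.00943) or replicate 2 (0.17, adjusted p = 0.0382), and was 0.09 (adjusted p = 0.142) without replicate 4.

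The receptor side of this peptide changed more than the peptide. Cckbr, the cholecystokinin receptor gene known from brain, measured 7.85, 7.54, 8.02 and 9.10 FPKM in the double mutant and 24.5, 23.0, 25.5 and 27.2 FPKM in wild type. The groups lay far apart, with -1.57 ± 0.065 in log2 fold change (SE, limma, adjusted p = 1.61e-08). Cckar was listed at 0 in 3 double mutant and 2 wild-type libraries, lay at 0.0235 FPKM in the other double mutant library and at 0.0205 and 0.0207 FPKM in the other wild-type libraries, and was not tested. Of the 9 listed genes of cholecystokinin reception and peptide processing, 8 were tested, 4 rose, 2 fell and 2 did not pass, with a median of 0.11. For comparison, 28.8% of all tested genes rose and 36.5% fell. The number called higher was 2 without letter B or C, and the number called lower was 1 with upper quartile scaling, with quantile normalization, on the means of the letters and without letter D. Cpe, the carboxypeptidase that trims neuropeptides, rose from 651.2 ± 19.5 to 825.8 ± 18.0 FPKM (SD, n = 4), a log2 fold change of 0.34 ± 0.03. Pam, which amidates peptides such as cholecystokinin, rose by 0.18 ± 0.05, with groups that overlap, and did not pass without letter B (adjusted p = 0.0764) or C (0.0781).

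**Figure D2:**
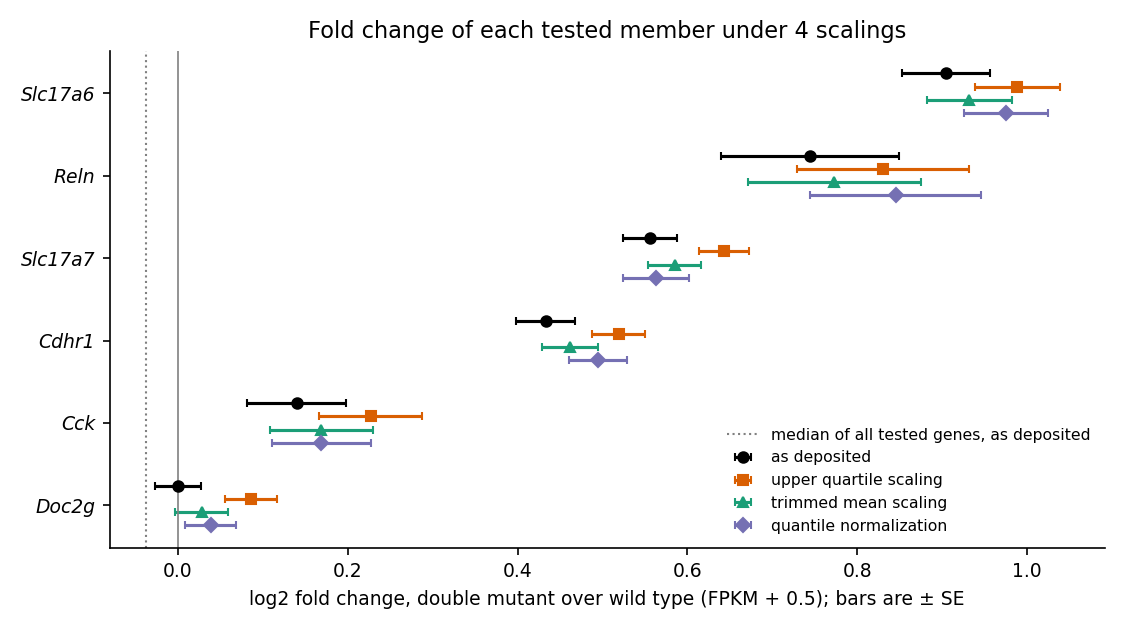
Log2 fold change of the 6 tested members, double mutant over wild type, with SE, on the values as deposited and under 3 other scalings. Slc17a6, Reln, Slc17a7 and Cdhr1 stay between 0.43 and 0.99, Cck between 0.14 and 0.23, and Doc2g between 0.00 and 0.09, and the dotted line marks the median of all tested genes as deposited, -0.04.

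The members did not change by the same factor. Ratios between members within a library were compared for all 21 pairs, and 17 differed between the groups at an adjusted exact p below 0.05. The pairs share members, so they are not separate results. The share among pairs of other genes was not computed, and groups did not overlap for 59.1% of single tested genes. The 6 pairs with Slc17a8 rest on the added 0.5 FPKM and are not read further. Of the other 15 pairs, 12 differed, each with no overlap of the groups, an exact permutation p of 0.0286 and an adjusted p of 0.0353. Those that did not pass were Reln to Slc17a6 (adjusted p = 0.33), Reln to Slc17a7 (0.19) and Doc2g to Cck (0.1). The permutations treat the libraries of a letter as separate, although such libraries were more alike than those of different letters. No ratio was tested by letter.

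Doc2g had almost the same FPKM as Slc17a7 in wild type. The ratio of Slc17a7 to Doc2g was 1.40, 1.44, 1.51 and 1.54 in the double mutant and 1.01, 0.94, 0.9965 and 1.05 in wild type. The groups did not overlap, and the log2 ratio was higher by 0.56 in the double mutant. Cdhr1 to Doc2g rose likewise, from 0.534 ± 0.021 to 0.723 ± 0.039 (SD, n = 4). Slc17a6 to Doc2g rose from 0.0361 ± 0.0023 to 0.0690 ± 0.0028. Of the 12 pairs that passed, Cdhr1 to Slc17a7 moved least, from 0.536 ± 0.012 to 0.492 ± 0.010. In Reln to Doc2g the letters showed again, with 0.212 and 0.201 in letter A and 0.284 and 0.265 in letter B.

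**Figure D3:**
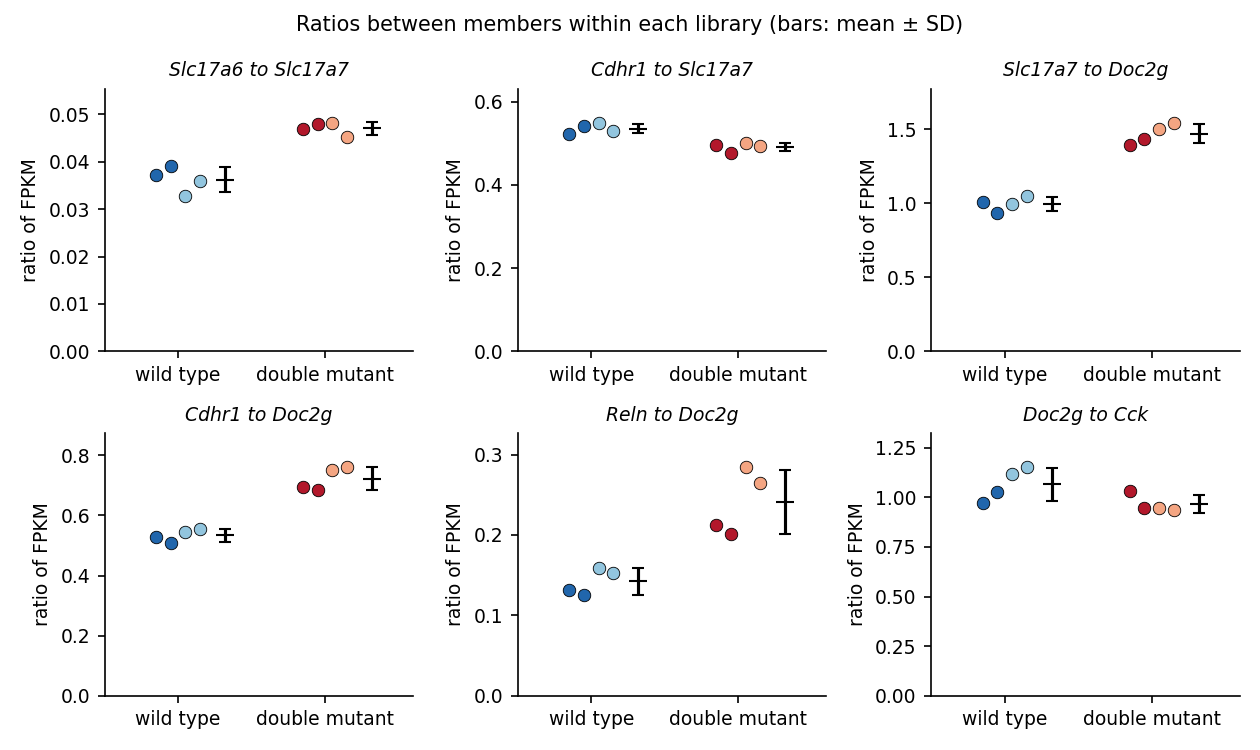
Ratio of the FPKM of 2 members in each library for 6 of the pairs, with points coloured by letter (wild type in blues, C dark and D light, double mutant in reds, A dark and B light) and bars at the mean ± SD. The groups separate in all panels except Doc2g to Cck.

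Other genes known from mitral and tufted cells, listed with earlier results of these data known, are given beside the members. Of 12 listed, 11 were in the table and tested, and 8 rose, none fell and 3 did not pass, with a median of 0.79. Of all tested genes 28.8% were called higher. Markers of olfactory sensory neurons, astrocytes and endothelial cells also rose, with medians of 0.81, 0.68 and 0.60, so a rise does not single out mitral and tufted genes. Eomes, a T-box factor of these cells, rose by 0.87 ± 0.03 on the log2 scale. Kcng1, a potassium channel subunit gene, rose from 2.09 ± 0.15 to 5.28 ± 0.22 FPKM and Coch, which encodes the extracellular protein cochlin, from 7.78 ± 0.97 to 19.24 ± 0.77 FPKM (SD, n = 4), or 1.16 ± 0.06 and 1.26 ± 0.08 on the log2 scale. The 3 that did not pass, named after their values were seen, were Ntng1, Piezo2 and Barhl2 at 0.08, 0.03 and 0.05. The summed level of the whole list was 144.3 to 149.6 in wild type and 240.8 to 260.8 FPKM in the double mutant.

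Markers of other cells moved in the same libraries. Of 12 bulb interneuron markers 11 fell and 1, Th, did not pass, with a median of -1.28. The share called lower among all tested genes was 36.5%. The summed level of these markers was 1620 to 1658 FPKM in wild type and 718.3 to 782.3 FPKM in the double mutant. The decarboxylase gene Gad1, the transporter gene Slc32a1 and the homeobox genes Dlx5 and Meis2 had log2 fold changes of -1.25, -1.18, -1.37 and -1.73. FPKM is relative to the library. The part of the interneuron markers in the rise of the members was not tested. The ratios within a library given above do not depend on how the library is scaled.

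Markers of cortical excitatory neurons, which carry Slc17a7 and lie next to the bulb, were also examined. Of 8 markers 7 were tested, 5 rose, 1 fell and 1 did not pass, with a median of 0.37. Beside this and the later counts of this paragraph, 28.8% of all tested genes rose and 36.5% fell. With the filter at a mean of 2 FPKM the number called higher was 2, since Fezf2, Rorb and Neurod6 lay below that filter and were not tested. The summed level of the 8 markers was 57.5 to 58.6 FPKM in wild type and 50.5 to 53.1 FPKM in the double mutant, and none was at 0 in all libraries. Without Lamp5, a sum added after the data were seen, it was 26.6 to 30.4 FPKM in wild type and 36.2 to 40.5 FPKM in the double mutant. Cux2 rose by 0.52 ± 0.04 and Fezf2, a factor of deep-layer cortical neurons, from 0.58 ± 0.07 to 1.27 ± 0.15 FPKM (SD, n = 4), while Lamp5 fell by 1.22 ± 0.08. Of 7 markers of cortical-type interneurons, which can carry Cck, Reln or Slc17a8, 6 were tested, 2 rose, 1 fell and 3 did not pass (median 0.13), and their summed level was 331.1 to 366.4 FPKM in wild type and 588.3 to 688.4 FPKM in the double mutant. The number called lower in this list was 2 without double mutant replicate 3, without replicate 4 or without letter B, and the number called higher was 1 without letter B or C. Most of the summed level was the neuropeptide gene Npy, which rose from 279.8 ± 14.3 to 549.5 ± 55.5 FPKM (SD, n = 4). The somatostatin gene Sst, whose groups overlap, rose by 0.62 ± 0.18 and did not pass without letter B (adjusted p = 0.0804) or C (0.0984), while Adarb2 fell by 1.77 ± 0.07. Among microglia markers 5 of 6 rose (median 0.42), with a summed level of 108.1 to 120.6 FPKM in wild type and 147.5 to 163.9 FPKM in the double mutant. All 5 endothelial markers rose (median 0.60), from a summed level of 66.2 to 71.8 FPKM to one of 118.4 to 140.5 FPKM. Of 5 oligodendrocyte markers 2 rose and 3 did not pass (median 0.06), with sums of 1421 to 1529 FPKM and 1516 to 1914 FPKM. That count rests on the letters, with 4 higher without letter A, 1 higher without letter B, C or D and on the means of the letters, and 2 lower without letter B. The part of these lists in the changes of the members was not tested.

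**Figure D4:**
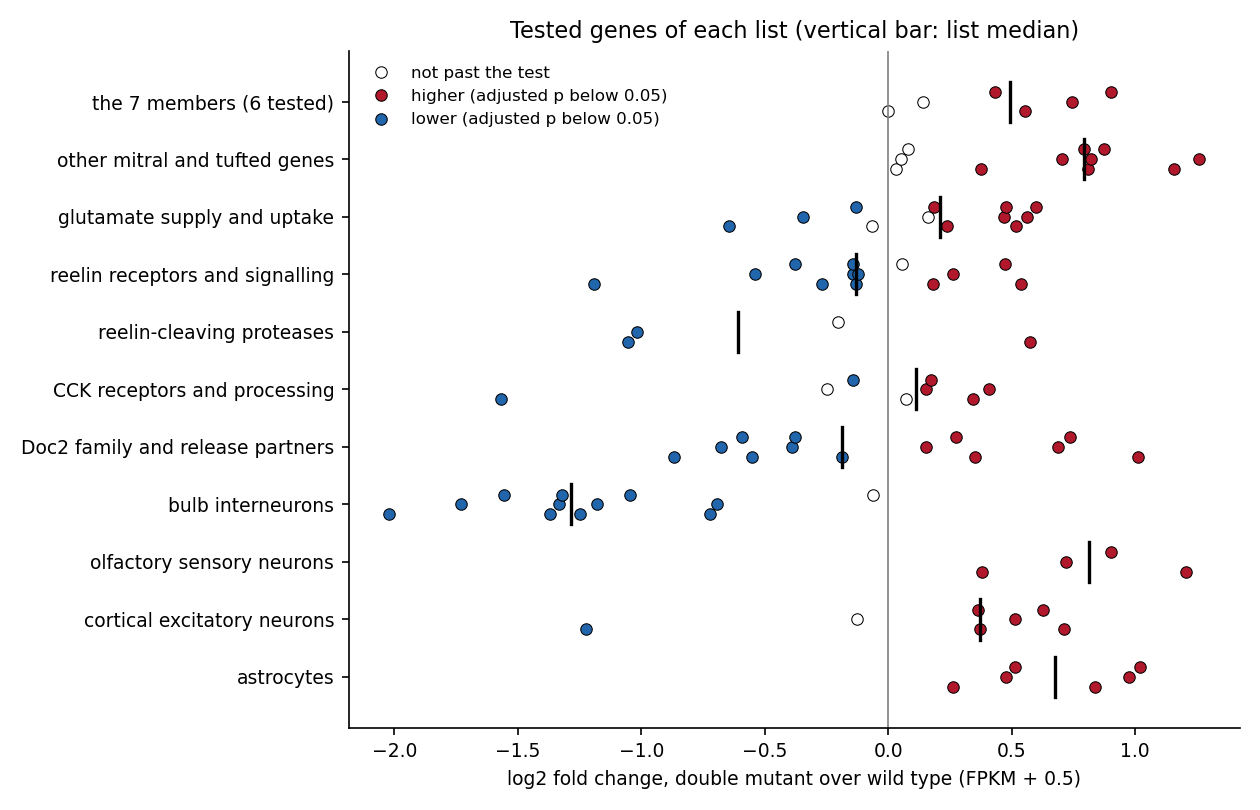
Log2 fold change, double mutant over wild type, of every tested gene in the member list and 10 other lists, with filled points for genes past the test and a bar at each list median. The members, the other mitral and tufted genes, the olfactory sensory neuron markers and the astrocyte markers lie at or above 0. The bulb interneuron markers lie below 0, and the reelin, CCK and release lists spread to both sides.

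Profiles over the 8 libraries were compared by the root mean square difference of log2(FPKM + 0.5), each gene centred on its own mean. The genes most like each member were sought among 12477 tested genes whose mean reached 1 FPKM. Symbols of predicted genes, clones, pseudogenes, small RNAs, olfactory receptors, mitochondrial genes and duplicate entries were left out. The closest genes are given as a description. For Slc17a7 these were Npc2 and Fgf1, with differences of 0.031 and 0.032 log2 units. For Slc17a6 they were Gbp7 and Gsn (0.048 and 0.049), and for Cdhr1 they were Igdcc4 and Dnajb4 (0.028 and 0.032). For Reln the distances were wider, 0.090 for Slc26a7 and 0.094 for Gatm. Doc2g was closest to Zbtb41 and Ctsf (both 0.020), and Cck to Pold1 and Fig4 (0.035 and 0.043). No other member was among the closest 2 genes of any member. With 2 places among 12477 genes, that absence cannot tell whether the members share a profile.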

How the data were processed

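RNA of 8 olfactory bulb libraries, 4 double mutant and 4 wild type, was sequenced. FPKM values and a second, scaled signal column per library were deposited by the authors in a single table. TopHat, Cufflinks 2.1.1 and GRCm38.p4 are listed, without roles, in the submitters' processing notes. Annotation, strand setting and filters: not given in the sources used here. Between 98.2% and 98.4% of the positive values in the scaled columns were whole multiples (within 0.02) of a step per library. The rest were not, so no count model was used. Dividing by the step gave approximate fragments.

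Values were analysed as log2(FPKM + 0.5) for genes averaging 0.5 FPKM or more. limma 3.58.1 in R 4.3.3 fitted group as the single factor (variances moderated along the mean), with two-sided p-values adjusted by Benjamini-Hochberg over all 14349 genes. The fit was run on simulated data with few changed genes and independent libraries. That run does not cover likeness within letters or the many changes seen here. Ratios used exact two-sided permutation tests over libraries (scipy 1.17.1), adjusted over 21 pairs, and were not tested by letter. Library pairs of the same letter had a median chi-square per gene of 1.17 to 1.45 times sampling noise. Pairs across letters of 1 group had 1.56 to 2.35 times, so libraries of a letter were more alike. The main fit kept all libraries separate and did not model this. A block by letter and the means of the letters were run as alternatives.

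The members and all gene lists were chosen with earlier results of these data known. The rule for named genes takes the 7 members, set receptors and partners (Lrp8, Vldlr, Dab1, Cckar, Cckbr, Doc2a, Doc2b, Prom1), from each list up to 3 genes with the smallest p and the one with the highest mean, and the 2 genes most like each member by profile. Alternatives were other pseudocounts, filters and scalings, the scaled columns, blocks by replicate number or letter, and leaving out libraries or letters. Protein sequences were not used here, and some listed genes are not reported here by name.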

Additional observations from a re-analysis of the deposited data

Results flagged for a closer look

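In a group of 4 libraries a value was singled out when its gap to the nearest other value exceeded the 95% limit of Dixon's test. Of 190 groups examined, 11 met this, where chance alone gives about 1 in 20. Among the members, Slc17a6 was highest in double mutant replicate 3 (21.2 FPKM, the others 19.81 to 19.97), and Slc17a8 was lowest in wild-type replicate 3 (0.0374 FPKM, 3 fragments). Of the ratios, Cdhr1 to Cck was lowest in double mutant replicate 2 (0.649), Doc2g to Cck was highest in double mutant replicate 1 (1.03), and Slc17a6 to Cck was highest in wild-type replicate 4 (0.0433). In the double mutant the other values were Cckar at 0.0235 FPKM in 1 library, Rab3a at 217.9 FPKM and Slc17a5 at 6.66 FPKM as lowest values. In wild type they were Aqp4 at 41.2 and Cdhr3 at 0.385 FPKM as lowest values, and Slc38a3 at 97.8 FPKM as highest value. The group means of these genes include the values.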

How the results depend on the processing

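Slc17a6, Reln, Slc17a7 and Cdhr1 kept their direction and passed the test in all 23 alternatives, with log2 fold changes of 0.85 to 0.99, 0.56 to 0.93, 0.52 to 0.64 and 0.38 to 0.52. On the means of the letters their limma adjusted p was larger than in the main fit, at 0.000159, 0.00454, 0.000209 and 0.000809 in that order. Cck was 0.14 as reported and passed with a filter at a mean of 2 FPKM (0.14, limma adjusted p = 0.0485), under upper quartile scaling (0.227), trimmed mean scaling and quantile normalization (0.169 each) and without letter C (0.254). When single libraries were left out it ranged from 0.093 to 0.189. Doc2g, whose change was 0.00 to 2 decimals, changed sign under upper quartile scaling (0.086), trimmed mean scaling (0.028), quantile normalization (0.039), in the scaled columns (0.030) and without letter B (0.018) or C (0.021), and lay between -0.016 and 0.012 without single libraries. The causes were not tested. Ctsf turned to 0.071, 0.014, 0.079 and 0.005 under those 3 scalings and in the scaled columns, and to 0.001 without letter C. Zbtb41 turned to -0.003 under quantile normalization, -0.012 without letter D and -0.001 to 0.014 without single libraries. The oligodendrocyte gene Mbp turned to -0.031 under quantile normalization, -0.072 without letter B and -0.003 to 0.138 without single libraries, and it was called higher without letter A (0.195, limma adjusted p = 0.00688) and without double mutant replicate 1 (0.138, adjusted p = 0.0419). The ratio of Slc17a6 to Slc17a7 stayed between 0.304 and 0.384 on the log2 scale without single libraries, but 3 against 4 libraries cannot give an exact p below 0.0571, so its adjusted p then missed the threshold by construction. Cdhr1 to Reln did not pass in the scaled columns (adjusted exact p = 0.075). The labels state no pairing by replicate number. Same-numbered libraries correlated at -0.05 to 0.01 in their deviations from the group means, and a correlation over all genes cannot exclude a pairing. A block by replicate number lowered the SE of Reln from 0.105 to 0.038. Among the tested members the SE rose only for Slc17a6, from 0.052 to 0.058. With the replicate block, 4045 genes were higher and 5144 lower, and the members called were 4 higher and 0 lower, as without it. Among the members depth limits Slc17a8, at 3 to 11 fragments per library, and Cckar and other listed genes below the filter were not tested.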
